A study of Apera spica-venti with 32 samples.

Results

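Histones, cell cycle and cytoskeleton genes were described in leaves of the cereal weed Apera spica-venti, or silky windgrass. The set holds 47 predicted reading frames, here called features, of the 7967 that carry a description and of the 39590 in the count table. A feature entered the set when its description named a histone, a cyclin of class A, B, D or U, a cyclin-dependent protein, tubulin, kinesin, a DNA polymerase, a replication licensing (MCM, minichromosome maintenance) factor or a microtubule protein, with histone-modifying enzymes dropped by their names. Descriptions exist only for features that the authors listed at an adjusted p under 0.05 in at least 1 of 4 comparisons of the same libraries, so the choice of members rests on measured differences. In the authors' deposited table, 25 members were listed in 1 comparison and 22 in 2. The members nearest the limit were kinesin-like KIN-14F, KIN-7A and KIN-10C, whose smallest adjusted p in the authors' deposited table were 0.0482, 0.0456 and 0.0437. Features outside that limit carry no description, so none can be named.

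Sprayed resistant plants (populations R2 and R1) and sprayed susceptible plants (S2 and S1) received pinoxaden, an inhibitor of acetyl-CoA carboxylase, in the 2 to 3 leaf stage (BBCH 12 to 13) at a dose of 45 g active ingredient per hectare, and their leaves were frozen 8 h later. Untreated resistant plants (R2 and R1) and untreated susceptible plants (S2 and S1) received no herbicide. R2 and R1 are resistant to several herbicides, and S2 and S1 are susceptible. Each of the 8 groups held 4 biological replicates of 3 pooled plants, which gave 32 libraries of strand-specific, ribosomal-RNA-depleted total RNA. No spray without herbicide and no harvest time of the untreated plants is recorded, so an effect of pinoxaden cannot be told apart from one of spraying or of the hour. Each class holds 2 populations, so a class difference cannot be told apart from differences between these populations.

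Histones H2A and H2B, together with H3 and H4, form the protein core around which DNA is wound, and plants make most of them while DNA is being copied. The MCM proteins form the ring that unwinds DNA ahead of the replicative polymerases delta and epsilon. D-type cyclins act with cyclin-dependent kinases (CDKs) when a cell enters the cycle, and B-type cyclins act at mitosis. Microtubules are polymers of alpha and beta tubulin that build the spindle and, in cells that no longer divide, the cortical array that guides wall deposition, and kinesins are the motors and remodelling enzymes that act on them. In a grass leaf, division is concentrated at the base of the growing blade.

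The 47 members lie on 46 assembled contigs and comprise 3 MCM factors, 4 DNA polymerase features, 5 H2A and 2 H2B histones, 2 B-type cyclins, 1 D-type cyclin, 5 CDK-related features, 12 kinesins, 4 microtubule-associated proteins, 6 tubulin-related features and 3 reverse transcriptases. The reverse transcriptases, enzymes of retroelements, were caught by the words RNA-directed DNA polymerase. No member is described as histone H1, H3 or H4 or as a cyclin of class A or U. Of the 47 members, 41 passed the filter on low counts and were tested among 25036 features. The 6 that did not pass are KIN-7A, a cyclin-B2-1-like feature, a feature described only as DNA polymerase, KIN-4C isoform X2, 1 of the reverse transcriptases and 1 of 2 features described as putative cyclin-dependent kinase F-2. Histones and alpha tubulins are multigene families whose copies may share reads, so their split between features is uncertain. Histone H2B and Histone H2B.2 are 2 reading frames of the same contig.

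The libraries held 26213780 to 46062806 counts, and the 47 members together took 0.0352% to 0.088% of them. Levels are given as CPM (counts scaled to a common library total with TMM factors), and they were not compared between genes because no transcript lengths were used. A leaf mesophyll list of 39 features summed to between 291372 and 519357 CPM. Its features were found by the words photosystem, chlorophyll a-b binding or ribulose bisphosphate carboxylase small, without separating plastid from nuclear messages. Replicate 1 of untreated R1 stood apart. It held the highest value of all 32 libraries for 21 of the 41 tested members, against 8.84% of all tested features, and for 25 of all 47 members. The authors listed 23 members between untreated classes, a comparison that includes this library, so these counts are not independent of the choice of members. The 8.84% is over all tested features, not over described ones. This library also had the largest share of counts in the members (0.088%), the lowest share in the 10 most abundant features (60.9%) and the lowest summed mesophyll level. That share and the mesophyll sum are not independent, because abundant photosynthesis messages can enter both. Its summed level was the lowest for 2 tested features of meristem and young tissue (36.5 CPM) and the highest for 8 of epidermis and wax (52.0 CPM). It was also the highest for lists of chromosomes and mitosis (80.6 CPM) and of actin and other cytoskeleton (239 CPM). The part of tissue composition in the results below was not tested. In leaf RNA of this kind, fewer cells of a type and less RNA per cell cannot be told apart.

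**Figure D1:**
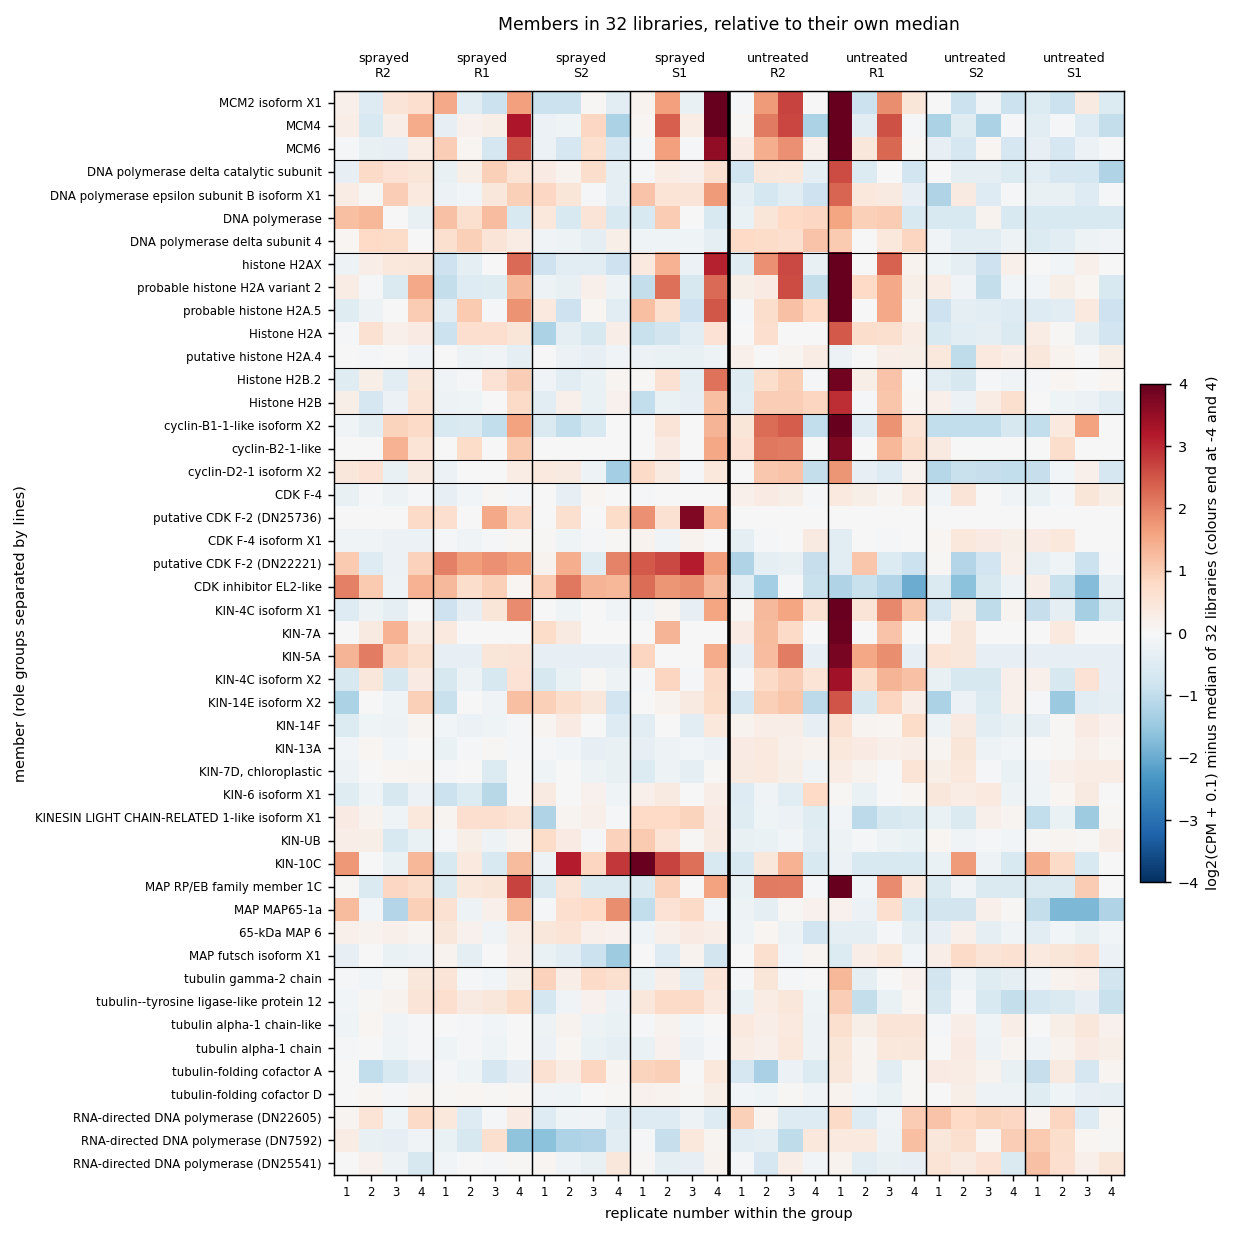
Log2(CPM + 0.1) of the 47 members (rows, grouped by role) in the 32 libraries (columns, 4 replicates in each of 8 groups), minus each member's median over all libraries. Replicate 1 of untreated R1 holds the highest value of 25 members, among them the MCM factors, H2AX, the B-type cyclins and KIN-4C.

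The 4 comparisons between classes or treatments are those the authors listed, so the counts that follow describe the selection and carry no weight of their own. Of the 7967 described features, the authors listed 1412 between untreated classes and 656 between sprayed classes. They listed 2430 with spraying in resistant and 6577 in susceptible plants, so the shares of all features given below are not those of described features. A feature is said to be called when its adjusted p was under 0.05 in edgeR's quasi-likelihood test with Benjamini-Hochberg adjustment over all 25036 features. In untreated plants, 14 of the 41 tested members were higher in resistant than in susceptible populations and 1 was lower, where 4.12% of all features were called, 2.76% higher and 1.36% lower. In sprayed plants, 1 member was higher and 3 were lower in resistant populations, against 2.3% of all features called, 1.55% higher and 0.751% lower. In resistant populations, 4 members were higher and 5 lower in sprayed than in untreated plants, where 9.14% of all features were called, 5.63% higher and 3.51% lower. In susceptible populations, 13 were higher and 8 lower in sprayed plants, where 25.4% of all features were called, 13.5% higher and 11.8% lower. The median log2 difference over the tested members was 0.59, -0.01, -0.35 and 0.61 in these 4 comparisons, in the same order, while the median over all features lay between -0.02 and 0.02. Without KIN-5A, which had 0 counts in 2 groups, the medians were 0.44, -0.02, -0.35 and 0.59. Of these called members, the authors' deposited table also listed 14 of 15, 4 of 4, 9 of 9 and 21 of 21. The comparisons share libraries, since each untreated or sprayed group enters 2 of them, and their values are therefore not independent.

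In the untreated class comparison the number of called members changed with single libraries. Without replicate 1 of untreated R1, 2 members were called in place of 15, where 1.13% of all features were called, and the members' median difference was 0.25. The 2 were DNA polymerase delta subunit 4 and KIN-4C isoform X1. Leaving out other libraries also lowered the count, to 3 without untreated R2 replicate 3, to 4 without untreated S1 replicate 1 or untreated S2 replicate 3, to 7 without untreated S1 replicate 4, and to 8 without untreated S1 replicate 2 or untreated R2 replicate 2. Leaving out certain other libraries raised the count above 15. Some calls lay near the limit. That of Histone H2B.2, at an adjusted p of 0.049 in edgeR's quasi-likelihood test, was lost in 25 of 32 such fits. These included fits without a sprayed library, which the comparison does not use. A fit to the 4 groups of untreated plants alone called 3 members. In the other comparisons the count with spraying in susceptible populations was 13 without untreated S2 replicate 1. In resistant populations it was 14 without untreated R1 replicate 2 or 4, and 15 without sprayed R1 replicate 4. Between sprayed classes it was 2 without sprayed S1 replicate 1, sprayed S2 replicate 4, sprayed R1 replicate 3 or sprayed R2 replicate 3. Scaling by library totals alone shifted the median of all features by 0.21 in the untreated class comparison and by 0.30 in susceptible plants with spraying. With that scaling, 4 members were higher and 3 lower with spraying in resistant populations (7.23% of all features called), and 15 were higher and 2 lower in susceptible populations (32.8%).

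**Figure D2:**
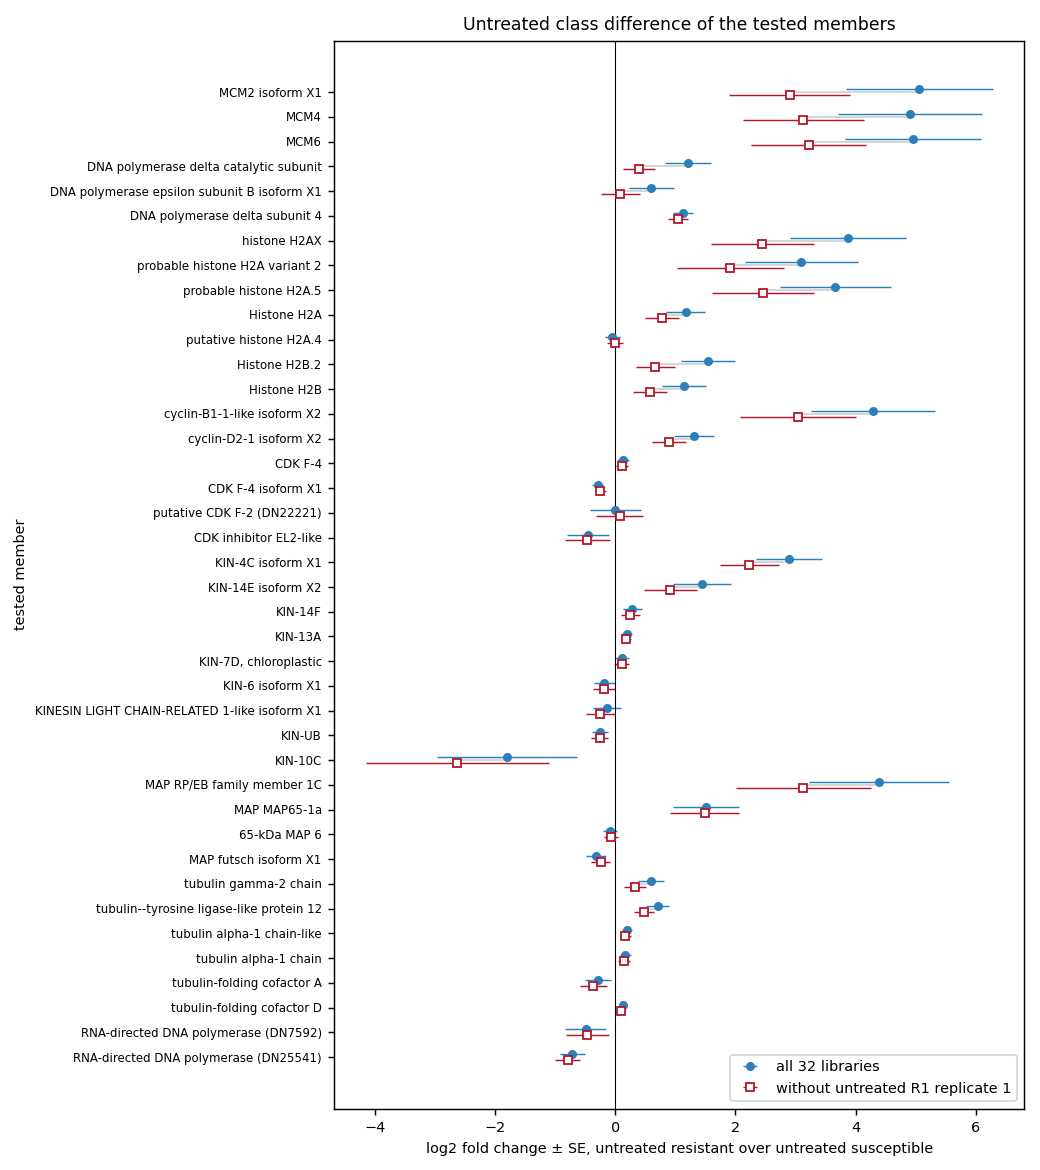
Log2 fold change ± SE of untreated resistant over untreated susceptible plants for the tested members without a group at 0 counts, with all 32 libraries (filled circles) and without replicate 1 of untreated R1 (open squares). For MCM4 the value is 4.91 with all libraries and 3.13 without that replicate, while DNA polymerase delta subunit 4 stays at 1.13 and 1.05.

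The levels of the MCM factors differed widely between libraries of the same group. MCM4 (TRINITY_DN87922_c0_g1_i2.p1), a subunit of the replicative helicase, had 0.191, 0.0556, 0.19 and 0.567 CPM in sprayed R2 and 0.0912, 0.17, 0.184 and 2.16 CPM in sprayed R1. It had 0.102, 0.113, 0.326 and 0 CPM in sprayed S2 and 0.154, 1.17, 0.194 and 4.76 CPM in sprayed S1. In sprayed R1, replicate 4 thus lay far above the other 3. In sprayed S1, replicate 4 was also the highest, but replicate 2, at 1.17 CPM, lay above replicates 1 and 3 as well. Untreated R2 had 0.15, 0.914, 1.44 and 0 CPM, and untreated R1 had 22.4, 0.077, 1.31 and 0.125 CPM. Untreated S2 had 0, 0.0732, 0 and 0.13 CPM, and untreated S1 had 0.0794, 0.128, 0.0671 and 0.0249 CPM. No untreated susceptible library reached 0.2 CPM, whereas 4 of 8 untreated resistant libraries exceeded 0.9 CPM and the other 4 had at most 0.15 CPM. The highest library rests on 774 reads and untreated S2 on 7 reads in all 4 libraries, so the low values are near the limit of detection.

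The log2 difference of MCM4 between untreated resistant and untreated susceptible plants was 4.91 ± 1.20 (SE), and it was 3.13 ± 1.00 without replicate 1 of untreated R1. MCM2 isoform X1 (TRINITY_DN14153_c0_g1_i7.p1), another helicase subunit, ranged over 0 to 18.7 CPM in untreated resistant libraries (median 0.327) and over 0 to 0.134 CPM in untreated susceptible libraries (median 0.0257). MCM6 ranged over 0.0627 to 12.0 CPM in untreated resistant libraries (median 0.224) and over 0 to 0.0673 CPM in untreated susceptible libraries (median 0.0269). All 3 factors had their highest value in the same library, replicate 1 of untreated R1, followed by replicate 4 of sprayed S1. With spraying, the 3 differences lay between -3.07 and -2.24 in resistant populations and between 2.08 and 2.85 in susceptible populations, and none was called in either. Without replicate 1 of untreated R1 the resistant differences lay between -1.11 and -0.47, and without replicate 4 of sprayed S1 the susceptible ones lay between 0.94 and 2.03.

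**Figure D3:**
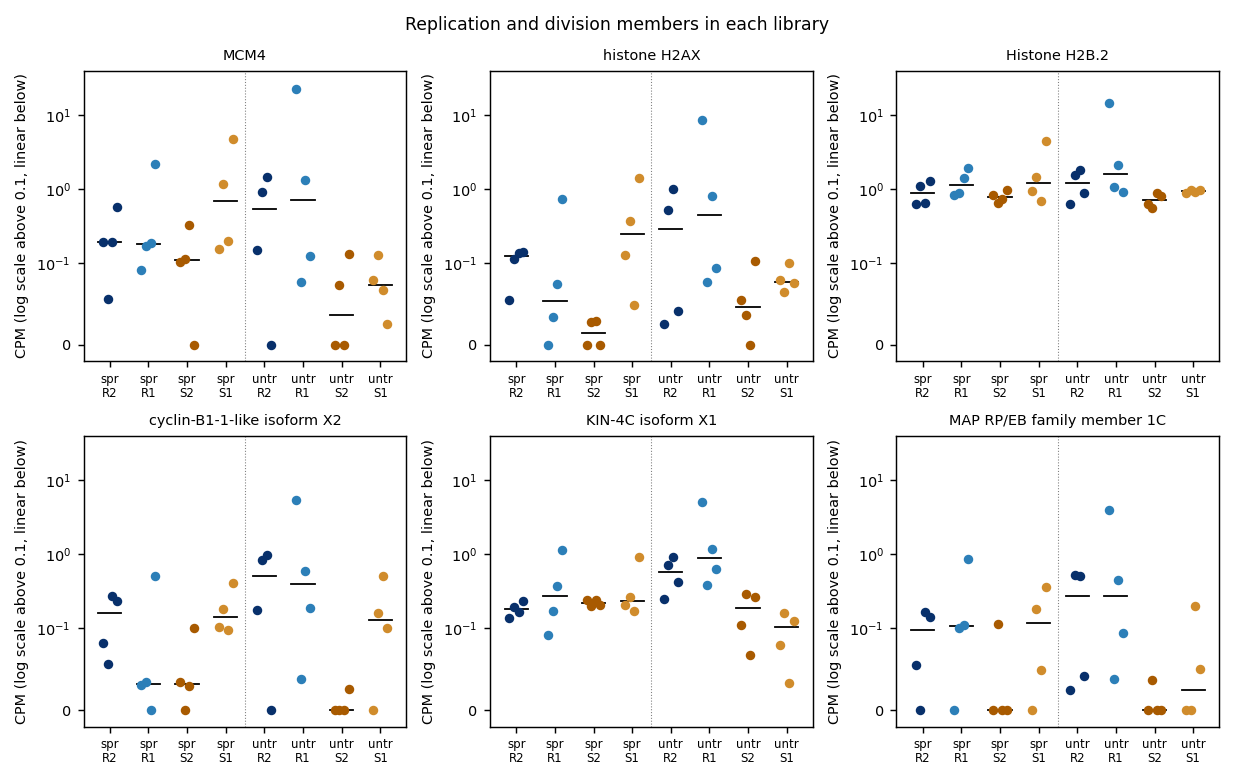
CPM of 6 replication and division members in each library (points, 4 per group) with the group median (line), on an axis that is logarithmic above 0.1 and linear below, with sprayed groups left of untreated groups. In each panel replicate 1 of untreated R1 is the highest point, at 22.4 CPM for MCM4, 8.57 for H2AX, 14.5 for H2B.2, 5.44 for cyclin-B1-1, 5.13 for KIN-4C and 3.94 for RP/EB member 1C.

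Of the 4 DNA polymerase features, 3 had their highest value in replicate 1 of untreated R1, and DNA polymerase delta subunit 4 did not. DNA polymerase delta subunit 4 (TRINITY_DN14325_c0_g1_i1.p1), a small accessory subunit of the polymerase that copies the lagging strand, had 1.97, 1.88, 1.83 and 2.55 CPM in untreated R2 and 2.37, 1.12, 1.52 and 2.10 CPM in untreated R1. It had 0.984, 0.805, 0.774 and 0.939 CPM in untreated S2 and 0.715, 0.80, 0.94 and 0.998 CPM in untreated S1. All 8 untreated resistant libraries lay above all 8 untreated susceptible libraries. In sprayed plants it had a median of 1.69 CPM (1.09 to 2.24) in resistant and of 0.968 CPM (0.822 to 1.32) in susceptible libraries, and these ranges overlapped. Its log2 difference between resistant and susceptible plants was 0.75 ± 0.16 when sprayed and 1.13 ± 0.17 when untreated, and the call in each held under all 39 alternative settings tried. The catalytic subunit of polymerase delta (TRINITY_DN30384_c0_g1_i3.p1) ranged over 0.4 to 5.24 CPM in untreated resistant libraries (median 0.68) and over 0.274 to 0.766 CPM in untreated susceptible libraries (median 0.512). Its second highest untreated resistant library had 1.08 CPM, so the 5.24 CPM of R1 replicate 1 stood alone. Subunit B of polymerase epsilon, an accessory subunit of the leading-strand enzyme, was higher with spraying in susceptible plants, with medians of 0.591 CPM sprayed and 0.29 CPM untreated and a log2 difference of 1.14 ± 0.37, a call lost without sprayed S1 replicate 4, sprayed S2 replicate 1 or untreated S2 replicate 1. The feature described only as DNA polymerase had 0 counts in 7 of 8 untreated susceptible libraries and at most 0.347 CPM elsewhere.

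Among the histones, 4 H2A and both H2B features had their highest value in replicate 1 of untreated R1 and 1 H2A feature did not. Histone H2AX (TRINITY_DN21604_c0_g2_i1.p2), the variant that is phosphorylated at DNA breaks, had 0.025, 0.526, 0.998 and 0.0418 CPM in untreated R2 and 8.57, 0.077, 0.806 and 0.094 CPM in untreated R1. Its 8 untreated susceptible libraries lay between 0 and 0.104 CPM. The same 4 untreated resistant libraries that were high for MCM4 were high for H2AX, and the other 4 lay within the susceptible range. Its log2 difference between untreated classes was 3.88 ± 0.97, and it was 2.45 ± 0.86 without R1 replicate 1. Probable histone H2A.5 had differences of 3.66 ± 0.92 and 2.46 ± 0.85 in these comparisons, and probable histone H2A variant 2 had 3.09 ± 0.94 and 1.92 ± 0.89.

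Histone H2A (TRINITY_DN48824_c4_g3_i1.p1), a core histone, ranged over 0.789 to 4.81 CPM in untreated resistant libraries (median 1.14) and over 0.424 to 1.01 CPM in untreated susceptible libraries (median 0.576). It had medians of 1.09 CPM in sprayed resistant and 0.517 CPM in sprayed susceptible libraries. Histone H2B.2 (TRINITY_DN3002_c0_g1_i30.p2) had 0.625, 1.55, 1.83 and 0.877 CPM in untreated R2 and 14.5, 1.08, 2.12 and 0.909 CPM in untreated R1, against 0.549 to 0.973 CPM in the 8 untreated susceptible libraries. The other reading frame of that contig, Histone H2B, reached 21.1 CPM in R1 replicate 1 and ranged over 1.95 to 5.73 CPM in the other 7 untreated resistant libraries, against 1.9 to 4.12 CPM in untreated susceptible libraries. Apart from R1 replicate 1, the H2B values of the untreated classes overlapped. Putative histone H2A.4 (TRINITY_DN959_c0_g1_i1.p1), another core histone, differed less between groups. It had medians of 30.8 CPM in sprayed resistant, 28.1 CPM in sprayed susceptible, 37.0 CPM in untreated resistant and 39.4 CPM in untreated susceptible libraries. Its log2 difference with spraying was -0.38 ± 0.13 in susceptible plants and -0.24 ± 0.13 in resistant plants, and it was called in susceptible plants, though not without untreated S1 replicate 1, untreated S2 replicate 1 or 3, or sprayed S2 replicate 3.

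The mitotic cyclin B1-1-like isoform X2 (TRINITY_DN15969_c1_g3_i1.p1) had 0.175, 0.83, 0.974 and 0 CPM in untreated R2 and 5.44, 0.0385, 0.597 and 0.188 CPM in untreated R1. It had no count in 3 of 4 untreated S2 libraries and 0, 0.16, 0.503 and 0.0998 CPM in untreated S1, so the untreated classes overlapped. Its log2 difference between them was 4.29 ± 1.04, and 3.04 ± 0.96 without R1 replicate 1. The cyclin-B2-1-like feature, which did not pass the filter, reached 1.25 CPM in R1 replicate 1 and at most 0.332 CPM in any other library. Cyclin-D2-1 isoform X2 (TRINITY_DN46125_c0_g1_i2.p1), of the class that acts at entry into the cycle, had medians of 1.55 CPM in sprayed resistant, 1.79 CPM in sprayed susceptible, 1.47 CPM in untreated resistant and 0.692 CPM in untreated susceptible libraries. The untreated susceptible libraries were thus the low set, and their range of 0.574 to 1.61 CPM overlapped that of each other set. The call of cyclin-D2-1 with spraying in susceptible plants was lost in 25 of the 39 settings. That between untreated classes was lost in 8.

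Of the 5 CDK-related members, 2 were called higher with spraying in both classes. The EL2-like CDK inhibitor (TRINITY_DN14328_c0_g1_i2.p1) is named after rice EL2, an elicitor-induced protein that binds and inhibits cyclin-dependent kinases. It had 3.51, 1.72, 0.678 and 2.24 CPM in sprayed R2 and 2.07, 1.36, 1.62 and 0.843 CPM in sprayed R1, against 0.55, 0.249, 0.742 and 0.376 CPM in untreated R2 and 0.29, 0.385, 0.298 and 0.125 CPM in untreated R1. It had 1.70, 3.71, 2.19 and 2.13 CPM in sprayed S2 and 4.13, 2.92, 3.16 and 2.11 CPM in sprayed S1, against 0.492, 0.183, 0.471 and 0.678 CPM in untreated S2 and 0.98, 0.384, 0.168 and 0.599 CPM in untreated S1. Sprayed and untreated libraries did not overlap in susceptible plants, and in resistant plants only the lowest sprayed library, R2 replicate 3, lay within the untreated range. The log2 difference with spraying was 2.24 ± 0.34 in resistant and 2.45 ± 0.33 in susceptible populations, and both calls held under all 39 settings. The resistant response minus the susceptible response was -0.21 ± 0.48.

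Putative cyclin-dependent kinase F-2 on contig DN22221 (TRINITY_DN22221_c0_g1_i6.p1) belongs by name to the plant class F, known in Arabidopsis for a kinase that activates other CDKs. It had 1.91, 0.584, 0.733 and 1.75 CPM in sprayed R2 and 3.83, 3.02, 3.36 and 3.03 CPM in sprayed R1, against a median of 0.587 CPM (0.325 to 2.00) in untreated resistant plants. It had 0.986, 2.55, 0.592 and 3.72 CPM in sprayed S2 and 5.29, 5.96, 8.56 and 3.01 CPM in sprayed S1, against a median of 0.715 CPM (0.329 to 1.02) in untreated susceptible plants. All 8 sprayed libraries of R1 and S1 lay above every untreated library, while those of R2 and S2 overlapped them. The log2 difference with spraying was 1.56 ± 0.36 in resistant and 2.28 ± 0.36 in susceptible plants. The other feature with this description, on contig DN25736, had no count in any of the 16 untreated libraries and up to 1.22 CPM in sprayed S1, and was below the filter. CDK F-4 (TRINITY_DN1203_c1_g1_i10.p1) was lower with spraying in resistant plants, with medians of 8.75 CPM sprayed and 11.1 CPM untreated and a log2 difference of -0.37 ± 0.10. CDK F-4 isoform X1 (TRINITY_DN1311_c0_g1_i6.p1) had medians of 26.8 CPM in sprayed and 32.2 CPM in untreated susceptible plants. Its log2 difference of -0.23 ± 0.09 was 0.077 when libraries were scaled by their totals alone. The call was lost in 22 of the 39 settings.

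**Figure D4:**
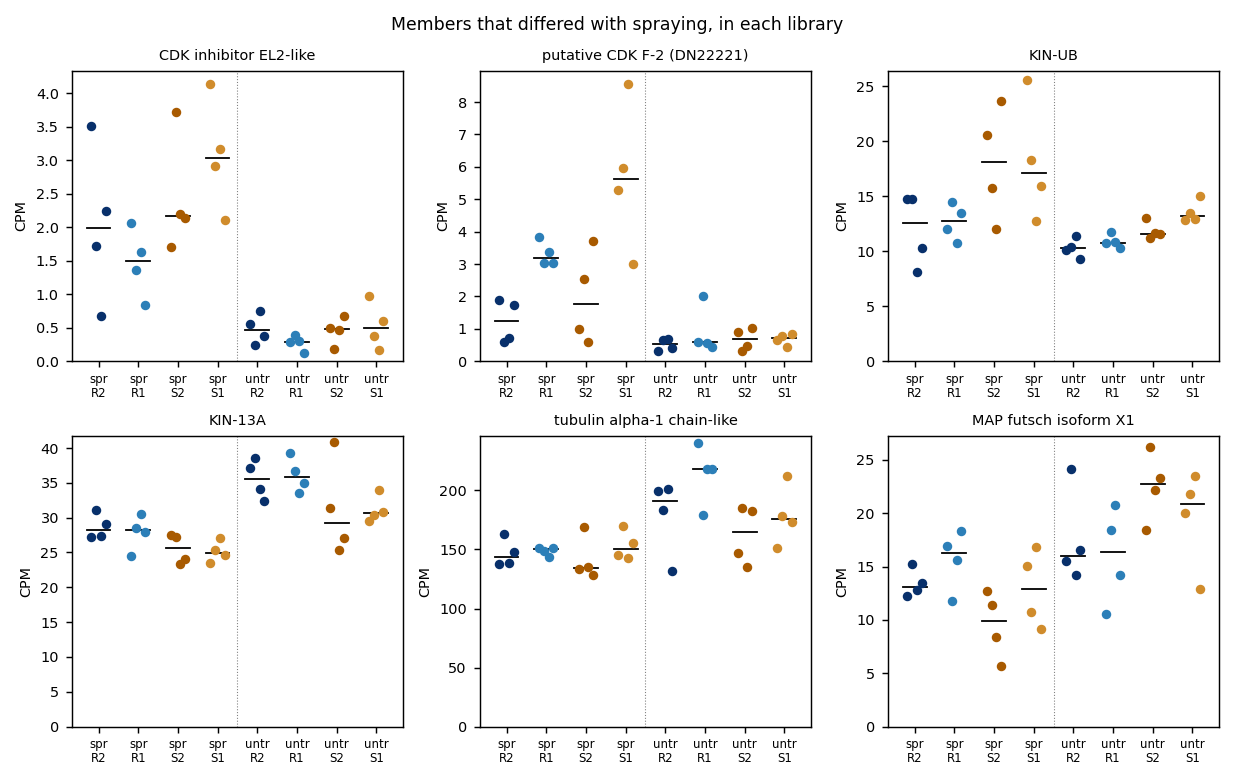
CPM of 6 members in each library (points, 4 per group) with the group median (line), with sprayed groups left of untreated groups. The EL2-like CDK inhibitor lies between 0.678 and 4.13 CPM in sprayed libraries and between 0.125 and 0.98 CPM in untreated ones, while KIN-13A is lower in sprayed than in untreated resistant libraries without overlap, at 24.5 to 31.1 and 32.4 to 39.4 CPM.

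Of the 12 kinesins, some had their highest value in replicate 1 of untreated R1, as the MCM factors did, and others did not. No likeness of kinesins to the MCM factors was computed. KIN-4C isoform X1 (TRINITY_DN22686_c0_g1_i3.p1) is a member of a family of plus-end-directed motors. It had 0.25, 0.72, 0.905 and 0.418 CPM in untreated R2 and 5.13, 0.385, 1.16 and 0.627 CPM in untreated R1, against 0.109, 0.293, 0.0673 and 0.261 CPM in untreated S2 and 0.0794, 0.16, 0.0336 and 0.125 CPM in untreated S1. Of the 8 untreated resistant libraries, 7 lay above every untreated susceptible library. Its log2 difference between untreated classes was 2.89 ± 0.55, and 2.23 ± 0.49 without R1 replicate 1. With spraying it was -1.82 ± 0.51 in resistant plants, a call lost without untreated R1 replicate 1 or untreated R2 replicate 3, and 1.08 ± 0.55 in susceptible plants, which was not called. KIN-5A, of the family that slides spindle microtubules apart, was counted 0 times in untreated S1 and in sprayed S2, so no fold is given for it. It had 25 reads in the 4 libraries of untreated R2 and 76 in untreated R1, of which 57 were in replicate 1, against 5 reads in untreated S2 and 0 in untreated S1. KIN-14E isoform X2, of a minus-end-directed family, reached 3.53 CPM in R1 replicate 1, and its other untreated resistant libraries lay between 0.209 and 1.28 CPM, against 0.128 to 0.626 CPM in untreated susceptible libraries. KIN-7A, which in Arabidopsis acts in the building of the new wall between daughter cells, had 1.42 CPM in R1 replicate 1 and at most 0.163 CPM in any other library.

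KIN-13A (TRINITY_DN3519_c0_g1_i5.p1), of a family that shortens microtubules, was slightly lower with spraying in both classes. It had medians of 28.2 CPM (24.5 to 31.1) in sprayed and 35.9 CPM (32.4 to 39.4) in untreated resistant libraries, which did not overlap. It had medians of 25.0 CPM (23.3 to 27.6) in sprayed and 30.6 CPM (25.3 to 40.9) in untreated susceptible libraries, which did. Its log2 difference was -0.34 ± 0.08 in resistant plants and -0.30 ± 0.08 in susceptible plants, where it was 0.014 with scaling by library totals alone. KIN-UB (TRINITY_DN39184_c0_g1_i1.p1) is an armadillo-repeat kinesin. Its medians were 12.7 CPM in sprayed resistant and 17.1 CPM in sprayed susceptible libraries. In untreated libraries they were 10.6 CPM in resistant and 12.9 CPM in susceptible plants. Its log2 difference with spraying was 0.22 ± 0.13 in resistant and 0.51 ± 0.13 in susceptible plants. Between sprayed classes the difference was -0.55 ± 0.13, a call lost without sprayed S1 replicate 1, sprayed S2 replicate 4, sprayed R1 replicate 3 or sprayed R2 replicate 3. KIN-6 isoform X1 had medians of 1.61 CPM in sprayed resistant and 2.68 CPM in sprayed susceptible libraries, a log2 difference of -0.65 ± 0.18, a call lost in 24 of the 32 fits that left out 1 library. KINESIN LIGHT CHAIN-RELATED 1-like has Arabidopsis relatives that act at cortical microtubules. It was higher with spraying by 0.89 ± 0.23 in resistant and by 0.68 ± 0.23 in susceptible plants on the log2 scale. In susceptible plants, 8 of the 32 fits that left out 1 library did not call it. KIN-10C varied from 0 to 2.29 CPM among sprayed susceptible libraries, against 0 to 0.402 CPM in untreated susceptible ones.

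Of the microtubule-associated proteins, the RP/EB family member 1C is a plus-end-binding protein known in Arabidopsis for a role at the spindle. Like the MCM factors, it had its highest value in replicate 1 of untreated R1. It had 3.94 CPM in R1 replicate 1 and 0.025 to 0.526 CPM in the other untreated resistant libraries, against 0 to 0.201 CPM in untreated susceptible libraries. The 65-kDa microtubule-associated protein 6 (TRINITY_DN125_c0_g1_i22.p2), of the family that cross-links microtubules into bundles, had medians of 4.97 CPM in sprayed and 3.61 CPM in untreated resistant libraries. In susceptible plants its medians were 5.19 CPM sprayed and 3.77 CPM untreated. The log2 differences were 0.46 ± 0.11 and 0.45 ± 0.11 in these classes, and both calls held under all 39 settings. MAP65-1a, of the same family, had medians of 0.435 CPM in sprayed and 0.0944 CPM in untreated susceptible libraries and a log2 difference of 2.28 ± 0.54. It had medians of 0.36 CPM in sprayed and 0.228 CPM in untreated resistant libraries, a log2 difference of 0.73 ± 0.49 that was not called. The feature described as futsch isoform X1 (TRINITY_DN3130_c0_g1_i3.p1) carries the name of a fly neuronal microtubule protein. It had 12.8, 11.4, 8.44 and 5.72 CPM in sprayed S2 and 15.1, 10.7, 16.9 and 9.12 CPM in sprayed S1, against 18.4, 26.2, 22.2 and 23.3 CPM in untreated S2 and between 12.9 and 23.5 CPM in untreated S1. Apart from untreated S1 replicate 4, all untreated susceptible libraries lay above all sprayed ones, and the log2 difference was -0.91 ± 0.17. In resistant plants the difference was -0.21 ± 0.17, with medians of 14.4 CPM sprayed and 16.0 CPM untreated.

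Both alpha tubulins, the building blocks of the microtubule, were lower with spraying in resistant plants. Tubulin alpha-1 chain-like (TRINITY_DN1979_c0_g1_i6.p1) had a median of 148 CPM (137 to 163) in sprayed and 200.3 CPM (132 to 241) in untreated resistant libraries, with 1 untreated library, R2 replicate 4, below the sprayed range. Its log2 difference was -0.41 ± 0.09 in resistant plants and -0.21 ± 0.09 in susceptible plants, where it was not called. Tubulin alpha-1 chain (TRINITY_DN1979_c0_g2_i2.p1) had log2 differences of -0.37 ± 0.09 and -0.25 ± 0.09 in these classes. The susceptible value was 0.074 with scaling by library totals alone, and its call was lost in 22 of the 39 settings. The gamma-2 tubulin chain, which nucleates microtubules, was higher by 0.68 ± 0.22 on the log2 scale with spraying in susceptible plants, with medians of 1.93 CPM sprayed and 1.17 CPM untreated, a call lost without sprayed S1 replicate 4 or untreated S1 replicate 4. Tubulin-folding cofactor A (TRINITY_DN8319_c0_g1_i12.p2), a chaperone of beta tubulin, had a median of 1.28 CPM (0.779 to 1.66) in sprayed resistant and 2.40 CPM (1.63 to 3.28) in sprayed susceptible libraries, a log2 difference of -0.97 ± 0.21. The ranges touched in 1 library of each class, and the call held under all 39 settings. Tubulin-folding cofactor D was higher by 0.24 ± 0.07 on the log2 scale with spraying in susceptible plants, though it was not called without untreated S1 replicate 1 or untreated S2 replicate 3 or 4. Tubulin--tyrosine ligase-like protein 12, of a family named for adding tyrosine to alpha tubulin, was higher by 0.79 ± 0.19 with spraying in susceptible plants, and its resistant difference of 0.24 ± 0.19 was not called.

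Of the 3 reverse transcriptases, 2 were tested. The feature on contig DN25541 had a median of 0.74 CPM (0.498 to 1.04) in untreated resistant and 1.28 CPM (0.547 to 2.07) in untreated susceptible libraries, and its difference of -0.71 ± 0.20 made it the only member called lower in untreated resistant plants. That call was lost without R1 replicate 1 and in 18 other of the 39 settings. The feature on contig DN7592 had medians of 0.303 CPM in sprayed and 0.822 CPM in untreated susceptible libraries, a log2 difference of -1.33 ± 0.35.

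With spraying, the MCM factors, H2AX, H2A.5, cyclin-B1-1 and KIN-4C had negative log2 differences in resistant and positive ones in susceptible populations, and the difference between the responses was called for no member. Without untreated R1 replicate 1 and sprayed S1 replicate 4, the MCM factors lay between -1.10 and -0.47 in resistant and between 0.93 and 2.03 in susceptible plants, and H2AX had -1.21 in resistant and -0.19 in susceptible plants. H2A.5 then had -0.32 and 1.54, cyclin-B1-1 -1.26 and 0.72, and KIN-4C isoform X1 -1.16 and 0.66 in these classes. The resistant response minus the susceptible response had a median of -0.65 over the 41 tested members and lay below 0 in 33. In edgeR's quasi-likelihood test the smallest adjusted p was 0.064, for KIN-4C isoform X1, with a difference of -2.90 ± 0.75. A further 15 members made 16 in all at an unadjusted p under 0.05. At an adjusted p under 0.05, 0.563% of all features were called, a share that is not the background of those 16. DESeq2 called 4 members (2.02% of the features it tested). The differences of the MCM factors were between -5.35 and -5.09, with adjusted p between 0.11 and 0.24. Without untreated R1 replicate 1 these lay between -3.63 and -3.00, with adjusted p between 0.25 and 0.43 in edgeR's quasi-likelihood test, 10 members had an unadjusted p under 0.05, and the median over the members was -0.39. These differences are combinations of the comparisons that chose the members.

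**Figure D5:**
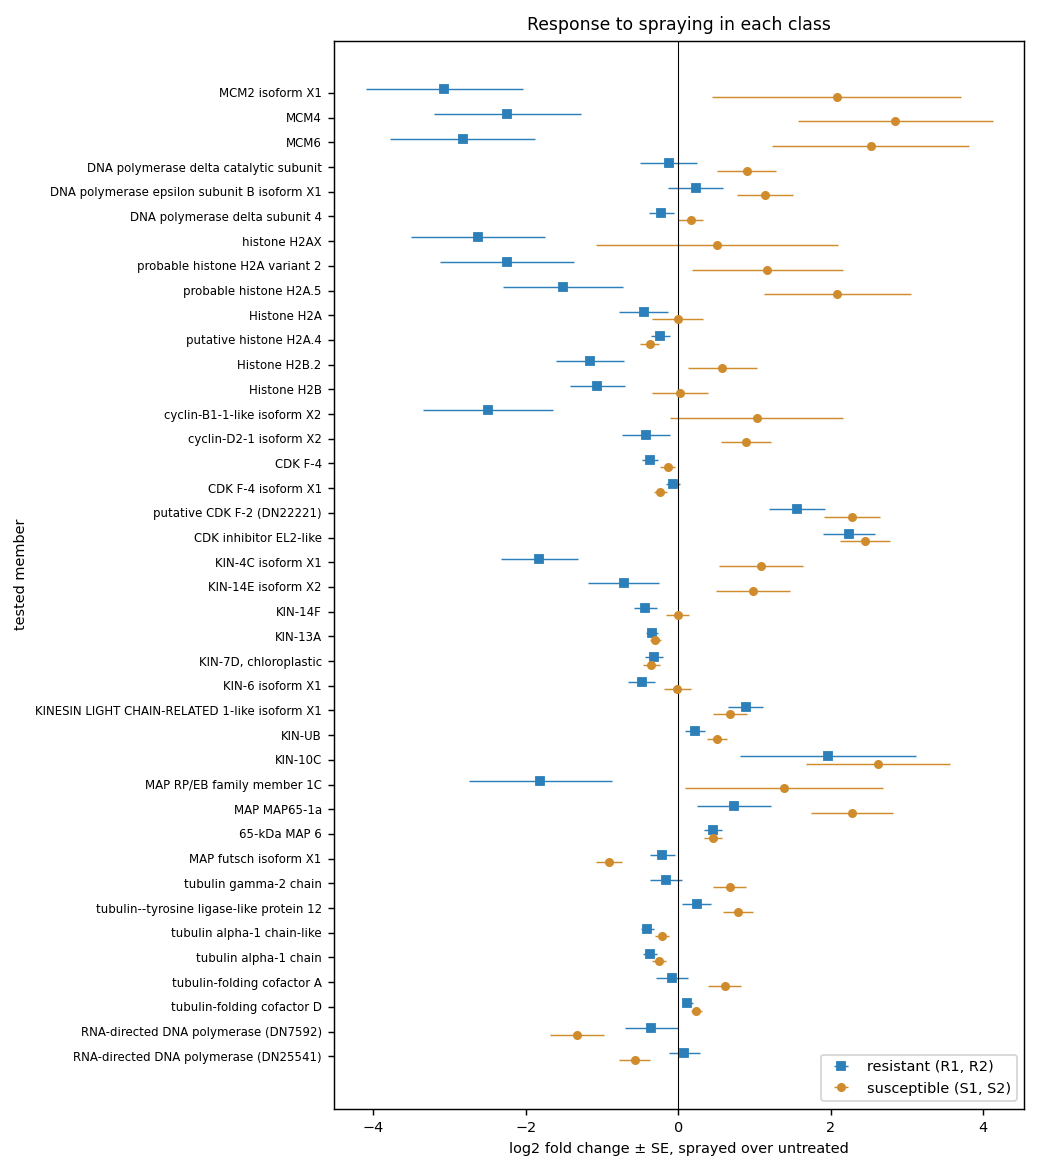
Log2 fold change ± SE of sprayed over untreated plants for the tested members without a group at 0 counts, in resistant (squares) and susceptible (circles) populations. MCM, most H2A and H2B, B-type cyclin and KIN-4C values lie left of 0 in resistant and near or right of 0 in susceptible plants with wide errors, while the EL2-like inhibitor lies at 2.24 and 2.45.

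Comparisons between the populations of a class were not themselves used in choosing the members, but they use the same libraries. Untreated R1 replicate 1 and sprayed S1 replicate 4 entered both, so these tests are not independent of the choice. In edgeR's quasi-likelihood test, no member was called in any of the 6 comparisons, and the share of all features called was low. The bracketed shares below are of features called at an adjusted p under 0.05. They are not the background of the counts at an unadjusted p, for which the share of all features is not given. Sprayed S2 against sprayed S1 had 11 members at an unadjusted p under 0.05 (1.34% of all features called), and DESeq2 called 2 (2.18%). The lowest adjusted p there was 0.119, for CDK F-2 on contig DN22221, with a log2 difference of -1.54 ± 0.49 between the values of sprayed S2 and sprayed S1 given above. The log2 differences of the 3 MCM factors lay between -4.86 and -3.47, with adjusted p of 0.199 to 0.302 in edgeR's quasi-likelihood test. Without sprayed S1 replicate 4 they lay between -2.59 and -1.73, and 6 members had an unadjusted p under 0.05. Untreated R2 against untreated R1 also had 11 members at an unadjusted p under 0.05 (0.0399% of all features called), all of them lower in R2, and DESeq2 called 0. Without untreated R1 replicate 1 none of the 41 had an unadjusted p under 0.05, and the differences of MCM2, MCM4 and cyclin-B1-1 were 0.84, 0.31 and 0.84. The count was 6 without untreated R2 replicate 1 or 4. Polymerase epsilon subunit B had the lowest adjusted p there, 0.253, with 0.275, 0.194, 0.255 and 0.167 CPM in untreated R2 and 2.29, 0.539, 0.507 and 0.282 CPM in untreated R1 and a log2 difference of -1.99 ± 0.53, which was -0.96 ± 0.47 without untreated R1 replicate 1.

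Untreated S2 against untreated S1 had 3 members at an unadjusted p under 0.05 (0.00799% of all features called; 1 member without untreated S2 replicate 2) and sprayed R2 against sprayed R1 had 1 (0.407%), and DESeq2 called 0 in both. The S2 response minus the S1 response had 6 (0.028%) and the R2 response minus the R1 response had 2 (0.00399%), and DESeq2 called 0 in both. These shares too are of features called at an adjusted p under 0.05, and are not the background of the unadjusted counts. Without untreated R1 replicate 1, sprayed S2 against sprayed S1 had 1 called member (2.14% of all features called), tubulin--tyrosine ligase-like protein 12, with a log2 difference of -0.81 ± 0.22 and an adjusted p of 0.0445 in edgeR's quasi-likelihood test. It had 3.57, 5.30, 6.63 and 5.01 CPM in sprayed S2, all below the 8.09, 10.1, 9.99 and 7.83 CPM in sprayed S1.

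With spraying in susceptible plants, the EL2-like inhibitor had the smallest p among the members that were higher, and futsch among those that were lower. Across the 8 group means of log2 CPM, the members most like the EL2-like inhibitor were the 65-kDa microtubule-associated protein 6 (Pearson r = 0.94), KIN-10C (0.86) and CDK F-2 on contig DN22221 (0.82). Those most like futsch were the reverse transcriptase on contig DN7592 (0.79), histone H2A.4 (0.65) and KIN-7D (0.63). These values describe 8 means that share library scaling and treatment.

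Other described features of replication, chromosomes and the cell cycle were counted from lists of words, and they too carry descriptions only because the authors listed them. Of all features, 5.63% were called higher and 3.51% lower with spraying in resistant plants, and 13.5% higher and 11.8% lower in susceptible plants. Of the 7967 described features, however, the authors listed 2430 with spraying in resistant and 6577 in susceptible plants. A list of described features can therefore exceed the shares of all features through that selection alone. Of 19 tested features of DNA synthesis and repair, 5 were higher and 0 lower with spraying in resistant plants, and 14 were higher and 2 lower in susceptible plants, with median log2 differences of 0.39 and 0.83. Between untreated classes 1 of the 19 was called higher, and 0 without R1 replicate 1. Of 21 chromatin features, 3 were higher and 0 lower with spraying in resistant plants (9 and 0 without R1 replicate 1) and 17 were higher and 2 lower in susceptible plants. Of 8 features of cell cycle control, 4 were higher in resistant and 7 in susceptible plants, and none was lower in either. Of 10 features of chromosomes and mitosis, 2 were higher and 1 lower in resistant plants (5 and 0 without R1 replicate 1) and 3 were higher in susceptible plants, and their sum was highest in R1 replicate 1 (80.6 CPM). Of 17 features of actin and the rest of the cytoskeleton, 2 were higher and 6 lower in resistant plants (3 and 5 without R1 replicate 1), and 6 were higher and 8 lower in susceptible plants. Of 14 growth features, 3 were higher and 6 lower in resistant plants, and 4 were higher and 5 lower in susceptible plants.

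Lists made from words for tissues held called features in the same comparisons, but a matching word does not make a feature a marker of that tissue. The vascular words include laccase and cellulose synthase, and those of epidermis and wax include lipid-transfer. The meristem words include growth-regulating factor, which is also a word of the growth list. Between untreated classes, 2.76% of all features were called higher and 1.36% lower in resistant plants. These lists too hold only described features, and of the 7967 described the authors listed 1412 between untreated classes. Of 39 mesophyll features, 11 were lower in untreated resistant than in untreated susceptible plants, 5 without R1 replicate 1, and 0 were higher. With spraying, 9 of the 39 were lower in resistant and 34 in susceptible plants, and 0 were higher in either. Of 8 epidermis and wax features, 4 were higher in untreated resistant plants, and 1 without R1 replicate 1. Of 7 vascular features, 3 were higher in resistant than in susceptible plants both sprayed (1.55% of all features called higher) and untreated. Of the 2 tested features of meristem and young tissue, both were lower with spraying in susceptible plants and neither was called between untreated classes. Of 20 tested features named for fungi, viruses, bacteria or mobile elements, 1 was higher and 3 were lower in untreated resistant plants (1 and 1 without R1 replicate 1), and 12 were lower with spraying in susceptible plants. The part of these lists in the members' differences was not tested.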

How the data were processed

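RNA from leaves of 4 populations, sprayed or untreated, was measured in 32 libraries. Raw counts of reading frames on assembled contigs were deposited as whole numbers with no normalization. The authors' second deposited table gives log2 fold changes and an adjusted p-value for 4 comparisons, listed only below 0.05, with descriptions. The submitters' processing notes name R 3.6.1, DESeq2 1.24.0, STAR 2.5.2b and FastQC 0.11.5, and the assembly, alignment and counting settings are not given in the sources used here.

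Features were filtered with filterByExpr by group and scaled with TMM factors. A quasi-likelihood model with 8 group means was fitted to all 32 libraries in edgeR 4.0.16 (R 4.3.3, limma 3.58.1), with a biological coefficient of variation of 0.389 in common and 24 residual degrees of freedom. Populations of a class were weighted equally, p-values were adjusted over the 25036 features tested by the Benjamini-Hochberg method, and no fold limit was used. SE is the log2 fold change divided by the root of F. The fit was also run on counts simulated from the fitted dispersions. No simulated library was made to deviate, so that run does not show how the test behaves with such a library. DESeq2 1.42.0 was an alternative, as were scaling by totals, no filter, only the groups compared, a replicate block and leaving out each library. Intervals and SE cover these libraries only, and low counts carry counting error in PCR reads without molecular identifiers.

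Members and lists were chosen with earlier results of these data known. Members named by rule were the 2 with the highest mean CPM in each role group, and, in every comparison, the 2 called members with the lowest p that were higher and the 2 that were lower, 24 features in all; the others were named after their values were seen. A planned test of the members' summed share of counts is not reported, because the members were chosen on these libraries. No 2 libraries of a group were duplicates, since the lowest chi-square per degree of freedom over 48 pairs was 12.9. Same-numbered libraries did not deviate together (correlations -0.11 to 0.11, above 0.1 in 1 of 112 pairs).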

Additional observations from a re-analysis of the deposited data

Results flagged for a closer look

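In groups of 4 libraries, 192 sets of values of the 24 members named by rule were examined for a library far from the other 3, and 19 were found. The limit used flags about 1 in 20 sets of independent, normally distributed values. Many of these values are low counts and the members share libraries, so that rate is no measure of chance here. Of the 19, 8 were in replicate 1 of untreated R1, 3 in replicate 4 of sprayed S1 and 2 in replicate 4 of sprayed R1.

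Replicate 1 of untreated R1 stood above the other 3 libraries of its group for MCM4 (22.4 CPM, the others at most 1.31), MCM2 (18.7 CPM, at most 0.567) and Histone H2B.2 (14.5 CPM, at most 2.12). It also did so for cyclin-B1-1 (5.44 CPM, at most 0.597), the catalytic subunit of polymerase delta (5.24 CPM, at most 0.776) and KIN-4C isoform X1 (5.13 CPM, at most 1.16). Cyclin-D2-1 had 4.95 CPM there (at most 1.54 in the others) and Histone H2A had 4.81 CPM (at most 1.35).

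Replicate 4 of sprayed S1 was high for MCM2 (3.42 CPM, the others at most 0.468) and for KIN-4C isoform X1 (0.904 CPM, at most 0.26), and low for polymerase delta subunit 4 (0.822 CPM, the others at least 0.963). Replicate 4 of sprayed R1 was high for MCM4 (2.16 CPM, at most 0.184 in the others) and for cyclin-B1-1 (0.5004 CPM, at most 0.0339).

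The remaining 6 lay in 6 libraries. CDK F-2 on contig DN22221 had 2.00 CPM in untreated R1 replicate 2, and the 65-kDa microtubule-associated protein 6 had 4.18 CPM in untreated R1 replicate 3. Histone H2A had 1.33 CPM in untreated R2 replicate 2, and Histone H2B was low at 1.95 CPM in untreated R2 replicate 1. Tubulin alpha-1 chain-like had 169 CPM in sprayed S2 replicate 2. Cyclin-B1-1 had 0.0261 CPM in untreated S2 replicate 4, a library with its only count in that group.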

How the results depend on the processing

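Of the 33 calls of members named by rule, 15 held under all 39 alternative settings. Leaving out single libraries, the members called with spraying ranged over 8 to 15 in resistant and 13 to 22 in susceptible plants, between untreated classes over 2 to 20, between sprayed classes over 2 to 4, and for the response difference and for sprayed S2 against S1 over 0 to 1. DESeq2 called 15 members with spraying in resistant plants, 4 for the response difference and 2 for sprayed S2 against S1. Scaling by library totals alone called 25 between untreated classes and 1 for the response difference. A fit to the compared groups alone called 3 between untreated classes. Without both untreated R1 replicate 1 and sprayed S1 replicate 4, an alternative chosen after seeing the data, 2 were called between untreated classes and 1 for sprayed S2 against S1. With scaling by totals alone, summed member CPM averaged 517 in sprayed S1, against 444 with TMM, and 416 and 415 in untreated S1 and S2, against 483 and 464. With that scaling, differences with spraying in susceptible plants were reversed to 0.077 for CDK F-4 isoform X1, 0.014 for KIN-13A and 0.074 for tubulin alpha-1 chain. The cause of these changes was not tested. The replicate numbers share only a number: a fit with the replicate number as a block called 10 members between untreated classes, 9 and 19 with spraying in resistant and susceptible plants and 4 between sprayed classes, and 5 of 32 libraries lay closest to their own number. At these depths MCM4 had fewer than 10 reads in most libraries, which limits what can be detected there.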
